A study of Mus musculus with 4 samples.

Results

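Muscle satellite cells, the stem cells of skeletal muscle, were taken from the tendon library of Prox1 eGFP mice at day 21 after the injury, where 2527 of the 6388 cells that passed the cell filter met the rule. A member had at least 1 UMI (a counted RNA molecule) of Pax7, at least 3 UMIs of Pax7, Myf5 and Chrdl2 together, no UMI of Pecam1, Cdh5 or Ptprc, and under 5% of its UMIs from the 5 myofibre genes Acta1, Ckm, Tnnc2, Tnnt3 and Mylpf. The cells were thus chosen by the measured UMIs of these genes, whose levels are given as a description only. The rule kept 39.6% of the cells (exact 95% Clopper-Pearson interval 38.4% to 40.8%).

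The study profiled single cells of the mouse Achilles tendon in 4 libraries, 1 a group, each from 5 pooled tendons. Its design sets uninjured tendon against tendon at 7 and 21 days after an injury that the labels call B/T. Prox1 eGFP tendons were taken untreated (day 0) and 7 and 21 days after B/T, and Vegfc CRE tendons 7 days after B/T. In the Prox1 eGFP lines a green fluorescent reporter is named for Prox1, a transcription factor of lymphatic endothelium that satellite cells also express. CRE is a recombinase, and neither the allele's construction nor the age of the animals is given in the sources used here. One label field calls the cells unsorted, whereas the protocol describes a flow cytometry sort for Prox1-expressing cells, so the shares of cells in a library may have been set by a gate.

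Satellite cells lie between the myofibre and its basement membrane and stay out of the cell cycle until muscle is damaged. Pax7 marks them, Myf5 and Myod1 commit them to the muscle lineage, and Myog marks their exit into differentiation. Notch signalling, through receptors such as Notch3 and targets of the Hey and Hes families, helps to hold them in quiescence. Heat shock genes and immediate early genes such as Fos and Jun are switched on within minutes to hours by many stresses, and enzymatic digestion of muscle is known to induce them in these cells.

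The 4 libraries held 717 to 8711 barcodes with 6761289 to 92568978 UMIs, and 690 to 7071 cells passed the cell filter (a minimum of 500 genes and 1000 UMIs, with a mitochondrial share below 15%). The same rule found 0 of 690 cells at day 0, which allows a share of up to 0.435%, 3252 of 4872 cells (66.7%) in Prox1 eGFP at day 7, and 17 of 7071 cells (0.240%) in Vegfc CRE. Between 2 and 14 barcodes were shared by any pair of libraries, and 3 of those shared by Prox1 eGFP days 7 and 21 were satellite cells in both. The day 21 satellite cells held a median of 6998 UMIs (1054 to 51119), 2077 genes and 2.64% mitochondrial UMIs. Those of day 7 held a median of 7861 UMIs. With 1 library a group there is no spread between animals, so no p-value is given. All intervals are 95% intervals that cover counting error only.

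Of the 6388 cells of day 21, 3042 had a Pax7 UMI, 2701 of these also reached the sum of 3 marker UMIs, 2545 had no Pecam1 or Cdh5, and 2529 had no Ptprc. The myofibre limit removed 2 more cells. Members had a median of 8 UMIs of the 3 markers and at most 47. The 219 members exactly at a sum of 3 had Dnajb1 at 1705 CPM (UMIs of the gene summed over the cells, scaled to 1e+06 UMIs of all genes), Pde10a at 177, Edn3 at 125 and Hey1 at 44.3. The 189 cells at a sum of 2 that passed the other limits had 1418, 127, 112 and 40.5 in the same order, so cells just outside the rule resembled those just inside. At least 1 myofibre UMI was found in 865 members, and 3 members had over 1% of them.

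Genes of satellite cells that the rule did not use were also high in the members. Chodl, a membrane lectin, was found at 1057 CPM in the members and 9.91 in the 1792 endothelial cells of the same library (at least 3 UMIs of Pecam1 and Cdh5, no Pax7). Cdh15, the cadherin that holds the cell to its fibre, was at 136 against 1.44. Fgfr4, a growth factor receptor of muscle progenitors, was at 161 against 1.49. Vcam1, an adhesion molecule used to sort satellite cells, was at 578 against 29.99. The proteoglycan Sdc4 was at 1839 against 54.8. These values set the members apart from endothelium by more than 10-fold for each gene. Calcr, the calcitonin receptor that keeps satellite cells quiescent, was lower at 33.3 CPM and was seen in 20.4% of members, against 0.213 in endothelium.

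Markers of endothelium and leukocytes, of which the rule excluded Pecam1, Cdh5 and Ptprc, were low in the members, and those of some other cells were not. The 12 endothelial markers summed to 79.7 CPM in the members and 21652 in the endothelial cells, with Flt4, the lymphatic receptor of Vegfc, at 0.821 against 316. The 10 leukocyte markers summed to 22.6 against 37004 in the 85 leukocytes of the library. The 9 fibroblast markers summed to 1619, close to the 1852 in endothelial cells, and the 12 myofibre markers to 145 against 151. The 8 mural cell markers summed to 604 in the members and 199 in endothelial cells, and these include Notch3, which satellite cells also express. Prox1 itself was found at 772 CPM, in 97.3% of members (75.7% after each cell was thinned to 2000 UMIs). It was at 1462 in the endothelial cells, a set that was not limited to lymphatic endothelium, and at 17.5 in the leukocytes.

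**Figure D1:**
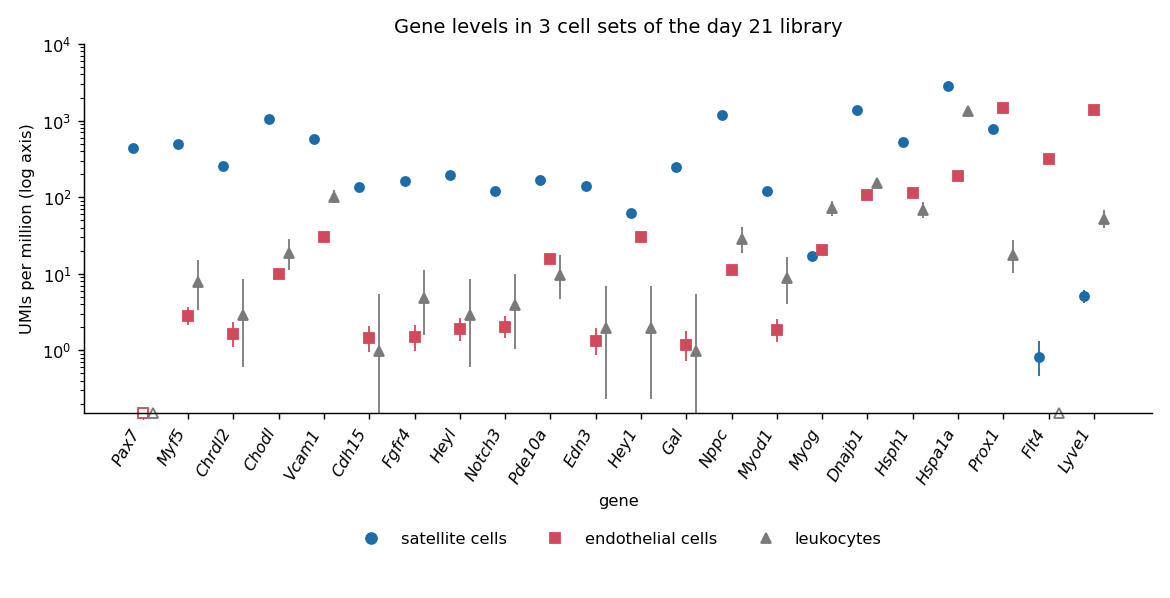
Levels of 22 genes in the day 21 library, as CPM on a log axis, in satellite cells (2527), endothelial cells (1792) and leukocytes (85). Bars are exact Poisson 95% intervals, most of them smaller than the symbol, and open symbols on the axis are values of 0. Pax7, Myf5, Chrdl2 and the absence of endothelial and immune genes were used by the rule. Edn3, Heyl, Gal and Cdh15 stand far above both other cell sets, whereas Hey1 is only 62.7 against 30.3 in endothelium.

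Genes of differentiation were rarely detected. Myod1, the activation factor, was found at 121 CPM and in 34.3% of members, or 17.2% after thinning. Myog was seen in 0.989% of members and the fusion gene Mymk in 0.277%. The share with a Myog UMI was 1.004% in endothelial cells. The members held 333 Myog UMIs, of which 331 were in the 0.930% of non-dividing members with any, so the cells that had Myog held many UMIs of it. Desmin, the muscle intermediate filament encoded by Des, was at 391 CPM in 85.0% of members.

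Genes of 3 signalling systems marked the day 21 satellite cells. Pde10a, which breaks down cyclic AMP and cyclic GMP, was at 169.6 CPM (164 to 175) in the members and 15.4 in endothelium. Edn3, an endothelin peptide, was at 139 (134 to 144) against 1.33. Hey1, a Notch target, was at 62.7 (59.3 to 66.3) against 30.3 and so did not separate the 2 cell types as the first pair did. Its relative Heyl did, at 192 against 1.92. Gal, the galanin neuropeptide, was at 251 against 1.17, and Nppc, the C-type natriuretic peptide, was at 1171 against 11.2. Receptors for the endothelin peptide were sparse in the members themselves, with Ednra at 3.69 and Ednrb at 0.154 CPM, whereas endothelial cells held Ednrb at 83.6. Npr2, the receptor of Nppc, was at 13.0 in members and 16.8 in endothelium.

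Heat shock genes were the other prominent feature. Dnajb1, a co-chaperone of the Hsp70 family, was at 1370.1 CPM in the members, against 105 in endothelial cells and 154 in leukocytes. Hsph1, an Hsp110 exchange factor, was at 519.97 against 113 and 68.9. Hspa1a, the inducible Hsp70, was at 2845 against 189 and 1353. Hspa1a and Hspa1b are near-identical copies, so the split of reads between them is uncertain.

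Promoter sequences of the heat shock genes were searched for the letters that heat shock factors bind, inverted repeats of the unit GAA. Facing units were searched as GAANNTTC and TTCNNGAA, 2 units each, and as either of these followed after NN by the next alternating unit, 3 units, on both strands. A match of 3 units also contains matches of 2. In the 250 bases before the start site, 2 units occurred in 12.8% of 32851 RefSeq promoters (GRCm38.p6) and 3 units in 0.466%. Of 28 genes in the heat shock list, 21 had a promoter in the table. Of their 28 promoters, 10 (35.7%) held 2 units and 2 held 3. These are not all separate sites. Hspd1 and Hspe1 share the bases of their matches, Hspa1a and Hspa1b have the same window, and both Hsph1 promoters hold the same match. Outside the list, the promoters of Pax7 and Myf5 also held 2 units. Windows of 80 bases, 5′ to 3′ on the gene's strand, are shown for 4 chaperone genes that were high in the same cells as Dnajb1 and for Pde10a, the signalling gene with a match, with the matches in capitals. A match is a description of letters, not of binding.

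Hspe1, chr1:55088030-55088109, plus strand: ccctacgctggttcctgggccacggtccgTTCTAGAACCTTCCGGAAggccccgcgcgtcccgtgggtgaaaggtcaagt
Hspb1, chr5:135887786-135887865, plus strand: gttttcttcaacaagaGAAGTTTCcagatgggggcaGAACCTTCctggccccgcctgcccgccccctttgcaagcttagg
Hspa1a, chr17:34972217-34972296, minus strand: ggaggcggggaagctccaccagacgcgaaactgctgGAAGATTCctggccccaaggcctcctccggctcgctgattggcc
Hsph1, chr5:149636326-149636405, minus strand: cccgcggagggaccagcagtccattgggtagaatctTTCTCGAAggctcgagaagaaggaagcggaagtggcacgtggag
Pde10a, chr17:8849876-8849955, plus strand: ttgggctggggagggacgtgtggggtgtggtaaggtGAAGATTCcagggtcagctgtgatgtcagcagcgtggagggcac

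The Hspe1 window lies between that gene and Hspd1, which is read the other way, and holds 2 overlapping matches of 3 units. The Hspb1 window holds 2 separate matches. The Hspa1a window is letter for letter that of Hspa1b. The window shown for Pde10a belongs to the second of its 2 start sites in the table, and the first held no match. No match was found in the windows of Dnajb1, Bag3 or Edn3, which says only that these letters are not there.

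How the heat shock genes and the signalling genes were distributed among the members was examined at equal depth. The 2391 members with at least 4000 UMIs were thinned to 4000, and 136 shallower members were left out. The 4000 UMIs of each cell were split at random into subsets A and B of 2000, so that subset A could place a cell and subset B could give its levels. Dnajb1 and Hsph1 summed to a median of 4 UMIs a cell at 4000 UMIs, with quartiles of 1 and 11, a 95th percentile of 31 and a highest value of 83. None was found in 19.6% of the cells. The sum of Pde10a, Edn3 and Hey1 had a median of 1, a 95th percentile of 4 and a highest value of 12, and 28.8% of the cells had none. The heat shock sum was therefore spread widely, while the other sum stayed within a few molecules.

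**Figure D2:**
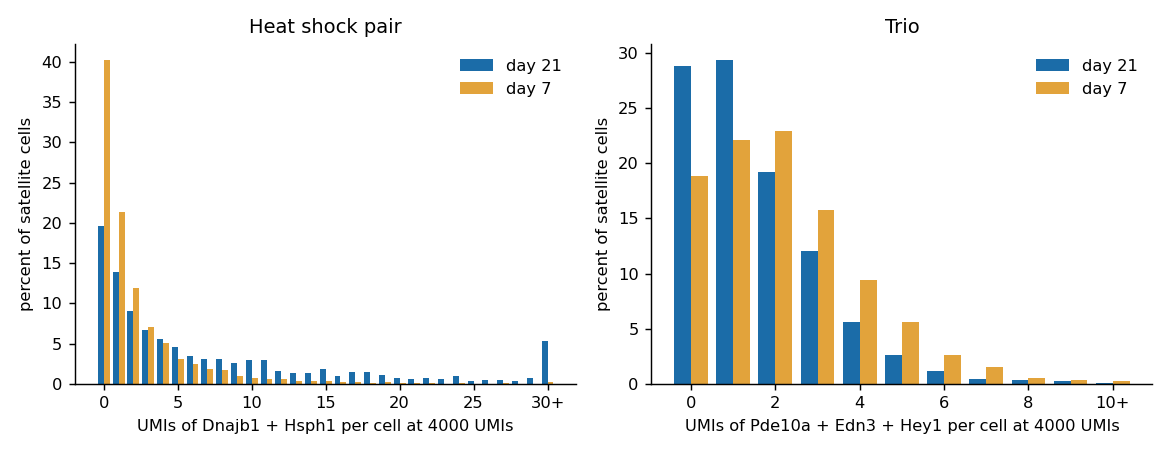
Share of satellite cells by the number of UMIs of Dnajb1 and Hsph1 (left) and of Pde10a, Edn3 and Hey1 (right), after thinning to 4000 UMIs, in the libraries of day 21 (2391 cells) and day 7 (3174 cells). The last bar of each axis pools all higher counts. The day 21 cells reach 83 UMIs of the pair, with 19.6% at 0 against 40.2% at day 7.

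A cell's place in the heat shock spread was similar in both subsets. Across the 2391 cells, the pair counted in subset A followed the pair in subset B with a Spearman rho of 0.81. The rho of the trio between subsets was 0.19, so single cells could hardly be ranked by it at this depth. Pair and trio together gave a rho of -0.10 at 4000 UMIs and -0.08 across subsets. All points come from 1 library, and total UMIs had a rho of 0.07 with the pair and -0.04 with the trio. The pair had a rho of -0.13 with the mitochondrial share.

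Cells at or above the 75th percentile of each sum in subset A were called pair-high (at least 6 UMIs) or trio-high (at least 1 UMI). As 752 cells had exactly 1 trio UMI and 1191 had none, the trio class amounts to detection. Both classes held 285 cells, the pair-high class alone 313, the trio-high class alone 915 and neither 878. Trio-high cells made up 47.7% of the pair-high cells (43.6% to 51.7%) and 51.0% of the other cells (48.7% to 53.4%). The summed level of the trio in subset B was 344 CPM in pair-high cells and 399 in the others, a ratio of 0.863 (0.772 to 0.964). The trio was thus detected about as often in pair-high cells as in the others, and its level was slightly lower there.

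Across the heat shock spread, other chaperone genes followed the pair step by step. From cells with no pair UMI in subset A through those with 1 to 2, 3 to 5, and 6 or more (724, 670, 399 and 598 cells), Hspa1a in subset B was at 1334, 2157, 3222 and 5670 CPM. Hspb1, a small heat shock protein, was at 829, 1154, 1788 and 3903. Both were higher at each step. Hspe1 and Hspd1, the mitochondrial chaperonins, were 2.97-fold (2.71 to 3.26) and 2.07-fold (1.84 to 2.33) higher in the top bin than in the bottom one. Dnaja4 was at 142 against 15.9, 8.95-fold higher (5.77 to 14.5).

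Immediate early genes made a smaller gradient along the same axis. Jun was at 3486, 4247, 5150 and 7523 CPM over the 4 bins. Egr1 was 2.18-fold higher (2.10 to 2.26) in the top bin, Fos 1.78-fold (1.73 to 1.82), Atf3 1.80-fold (1.67 to 1.94) and Junb 2.01-fold (1.95 to 2.08). Not every stress gene took part. Fosb was at 1.12-fold (1.05 to 1.20), and Klf4 at a ratio of 0.830 (0.746 to 0.923). Mt1, a metallothionein, was at a ratio of 0.926 (0.880 to 0.974).

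Some lineage genes were level along the heat shock axis, others were lower and Spry1 was higher. Pax7, Myf5 and Chrdl2 were in the rule, so their values are a description only. The ratio of the top bin to the bottom one was 1.07 for Pax7 (0.953 to 1.20), 0.955 for Myf5 (0.854 to 1.07), 0.977 for Myod1 (0.780 to 1.22), 1.04 for Heyl (0.867 to 1.24) and 0.960 for Prox1 (0.881 to 1.05). It was lower for Chrdl2 at 0.760 (0.646 to 0.893), Cdh15 at 0.777 (0.623 to 0.967) and Vcam1 at 0.836 (0.753 to 0.928). Smaller differences were found for Sdc4 at 0.898 (0.849 to 0.950), Chodl at 0.922 (0.857 to 0.991) and Spry1 at 1.13 (1.01 to 1.27). Secreted factors differed in both directions. The chemokine Cxcl1 was higher in the top bin at 1.47 (1.36 to 1.58) and Nppc at 1.10 (1.03 to 1.18). Gal was at 399 CPM in cells with no pair UMI and at 216, 189 and 199.8 in the other bins, a ratio of 0.501 (0.429 to 0.583). Erfe, the iron-regulating hormone erythroferrone, was at 162, 154, 104 and 78.6, or 2.06-fold lower at the top. Igfbp5, a binding protein of insulin-like growth factors, was 1.62-fold lower and Igf1 1.97-fold lower. Pde10a was at 204 and 151 in the bottom and top bins, a ratio of 0.739 (0.610 to 0.892). Edn3 gave 0.811 (0.658 to 0.996) and Hey1 0.793 (0.583 to 1.07), an interval that includes no difference. The fibroblast gene Col1a1 was at 92.5, 143, 56.4 and 24.2 over the same bins, and its part in these values was not tested.

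**Figure D3:**
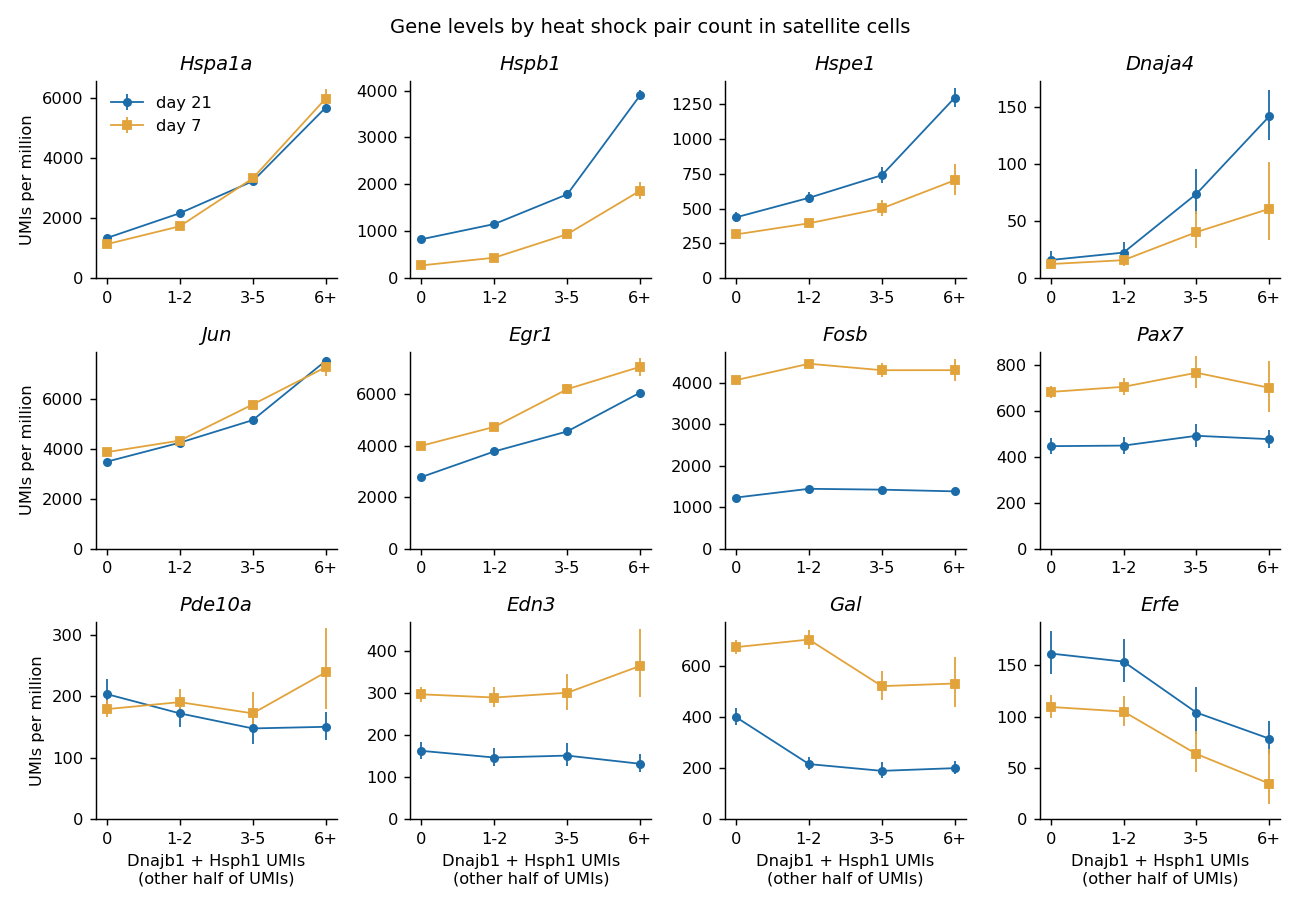
Levels of 12 genes in subset B of each satellite cell's UMIs (vertical axis, CPM, from 0) by the number of Dnajb1 and Hsph1 UMIs in subset A (horizontal axis), for day 21 (circles) and day 7 (squares). Bars are exact Poisson 95% intervals. Hspa1a, Hspb1, Hspe1, Dnaja4, Jun and Egr1 are higher at every step in both libraries, and Pax7 is level. Within day 21 Gal is highest in cells without the pair, at 399, and all day 7 values of Gal are above it.

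Cells that were pair-high only were then set against cells that were trio-high only. Of 9599 genes with at least 10 UMIs, 276 (2.88%) were at least 2-fold higher in the pair-high cells and 744 (7.75%) at least 2-fold lower, by size alone, with a median log2 ratio of -0.10. The classes held 313 and 915 cells, so counting error takes a sparse gene past 2-fold lower more readily than past 2-fold higher. The split between higher and lower genes is a description only. The heat shock list had 8 of 28 genes at least 2-fold higher and none lower, with a median of 0.66. Beside Dnajb1 (4203 against 538 CPM) and Hsph1 (1134 against 275), which set the classes, these were Hspb1 (3899 against 1149), Hspa1b, Hspa1a, Hspe1, Bag3 and Hspb8. Of the 31 immediate early genes 0 were 2-fold apart, with a median of 0.30. The 22 satellite identity genes had none 2-fold apart and a median of -0.11. Of 14 Notch pathway genes with enough UMIs, 1 was at least 2-fold lower (Maml2, at 3.19 against 7.10), with a median of -0.16. The fibroblast markers had 5 of 8 genes lower, with a median of -1.39, and their part in these ratios was not tested.

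The genes with the largest ratios by the naming rule include several that rest on few cells. Acta1, skeletal actin, was at 95.8 against 22.4 CPM, but 45.5% of its UMIs came from 1 cell. Cxcl2, a chemokine, was 11.5-fold lower with 26.8% of its UMIs in 1 cell. Top2a and Hist1h1b, genes of dividing cells, were 4.24-fold and 7.07-fold lower, seen in 2 pair-high cells each and in 21 and 20 trio-high cells. Dnaja4 was more evenly spread and was 4.27-fold higher (2.94 to 6.24), in 54 pair-high and 44 trio-high cells. Pon2, a membrane lactonase, was 3.10-fold lower, in 16 and 143 cells. Of the other named genes, Snx27, Ntmt1, Socs6 and N4bp2 were 2.12-fold to 2.27-fold higher and Cap1, Fam53b, Itpa, Stambp, Hist1h2ae, Col1a2, Eva1b and Kirrel were 3.15-fold to 4.04-fold lower. Ntmt1, Snx27, Socs6, Stambp, Hist1h1b, Hist1h2ae and Kirrel turned direction under at least 1 other setting, with Ntmt1 at a log2 ratio of -1.20 at a depth of 2000 and Hist1h1b at 0.65 without the fibroblast-rich or dividing members.

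Links among the 3 genes of the trio were partial. In subset B, cells with a Pde10a UMI in subset A (648 cells) had Pde10a at 272 CPM against 135 in the rest, a ratio of 2.01 (1.74 to 2.31). Their Edn3 ratio was 0.965 (0.813 to 1.14) and their Hey1 ratio 1.63 (1.29 to 2.07). The 573 cells with Edn3 had an Edn3 ratio of 1.81 (1.55 to 2.12), with Pde10a at 0.997 (0.845 to 1.17) and Hey1 at 0.990 (0.750 to 1.29). The 262 cells with Hey1 had Hey1 at 2.82 (2.15 to 3.65), Pde10a at 0.996 (0.791 to 1.24) and Edn3 at 1.19 (0.945 to 1.49). The link of Pde10a with Hey1 was seen when cells were split by Pde10a and not when they were split by Hey1, and the Pde10a split of day 7 gave Hey1 at 0.919 (0.723 to 1.16). At day 7 cells with Edn3 held more Pde10a, at 1.26 (1.12 to 1.41), and Hey1 at 0.846 (0.679 to 1.05).

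Other genes followed the 3 splits in different combinations, some of them shared. Cells with Edn3 held more Gal, with a ratio of 1.88 (1.67 to 2.11), more Igfbp5 at 1.73 (1.56 to 1.91), and less Myod1 at 0.635 (0.504 to 0.792). Cells with Hey1 held more Hes1, a Notch target of the same class, at 1.87 (1.62 to 2.16) and more Igfbp5 at 1.58 (1.39 to 1.80). Cells with Pde10a held less Igfbp5, at 0.667 (0.590 to 0.752), more Gal, at 1.44 (1.28 to 1.62), and more Hes1, at 1.25 (1.10 to 1.41). Nppc was higher in all 3 splits, at ratios of 1.29 to 1.35. The same splits at day 7 gave Hes1 at 1.59 (1.40 to 1.80) in Hey1 cells, but Gal at 1.20 and Myod1 at 0.972 (0.831 to 1.14) in Edn3 cells.

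**Figure D4:**
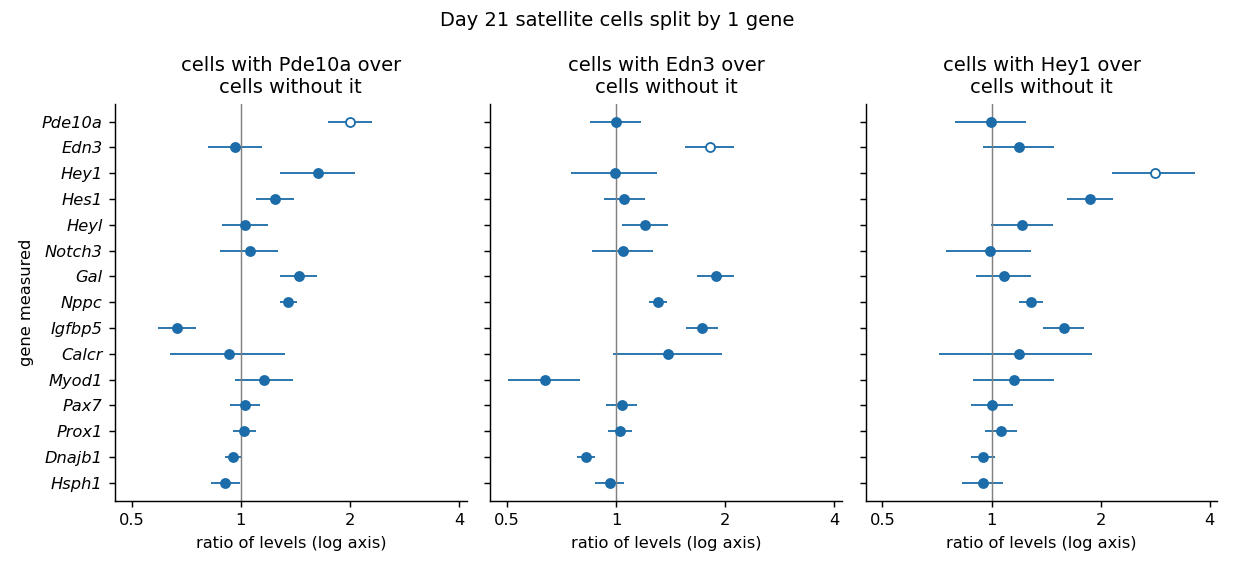
Ratio of gene levels between day 21 satellite cells with and without a UMI of Pde10a, Edn3 or Hey1 in subset A of their UMIs, measured in subset B, on a log axis. Points are ratios, bars are exact 95% intervals for counting error, and open points are the splitting gene itself. Only the Pde10a split moves another gene of the 3, Hey1 at 1.63, while Gal stands at 1.88 in the Edn3 split and Hes1 at 1.87 in the Hey1 split.

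Principal components of the thinned counts, computed over 6257 genes that included the pair and trio, placed the heat shock genes on more than 1 axis. The rho values of the components with the pair and trio are therefore partly built in. Each component was also turned to have Dnajb1 at its positive end, which favours a positive rho with the pair. These rho values are a description only. The first 3 components held 1.62%, 1.07% and 0.791% of the variance. The first set Mt1, Cebpd, Fosb and Nfkbia against Lgals1, Sparc, Crip1 and Vim. The second set Fos, Hspa1a, Jun and Egr1, with Dnajb1 at rank 7, against Lmna, Tnfrsf12a and Hspa5. The third set Fos, Jun and Hspb1 against Nop58, Npm1 and ribosomal protein genes. The fourth, added after the values were seen, held 0.597% and set Dnajb1, Hspa1a, Hspb1 and Hsph1 at ranks 1 to 4 against Igfbp5, Apoe, Chodl and Gpx3, with Pde10a at rank 6242 and Edn3 at rank 6220 of 6257, near the opposite end. Its rho was 0.52 with the pair, -0.22 with the trio, 0.31 with total UMIs and -0.33 with the mitochondrial share. The second component went the other way for the trio, with a rho of 0.26 with the pair and 0.14 with the trio, and held Pde10a at rank 57 and Hey1 at rank 158 on the Dnajb1 side. The first had a rho of 0.28 with the pair and -0.16 with the trio, and the third 0.25 and 0.05.

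A small number of members were dividing. The 9 genes Mki67, Top2a, Birc5, Ccnb1, Ccnb2, Ccna2, Cdk1, Cenpf and Cenpe summed to 10 or more UMIs in 55 members (2.18%, 1.64% to 2.82%), which held 95.3% of all UMIs of these genes, and to 0 in 92.3% of the members. After thinning to 2000 UMIs, 55 of 2508 cells (2.19%) had at least 2 such UMIs. Of the genes in the rule, Pax7 was at 205 CPM in these cells against 455 in the other members, and Myf5 at 397 against 507. Every member holds Pax7 by the rule, so these 2 values are a description only. Prox1, which the rule did not use, was at 736 against 774. Myod1 was higher, at 314 against 109, and cyclin D1 (Ccnd1) at 426 against 130. Of the other genes examined, several were lower, with Chodl at 311 against 1103, Calcr at 11.4 against 34.7, Gal at 65.2 against 262 and Heyl at 88.9 against 198. Hey1 was at 63.4 against 62.7 and Cdh15 at 144 against 136. Dnajb1 was at 461 against 1426. The dividing cells had a median of 18234 UMIs and the others 6926.5, and Col1a1 was at 729 against 173, whose part in these values was not tested.

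The same rule at day 7 gave the comparison over time, with 27040 gene identifiers found in both libraries' gene lists, which kept 99.2% and 99.8% of the members' UMIs. The 2 libraries differed in gene list and depth as well as in day, and these cannot be told apart from a difference over time. Of 13829 genes with at least 10 UMIs, 763 (5.52%) were at least 2-fold higher at day 21 and 1415 (10.2%) at least 2-fold lower, and the median log2 ratio was -0.21. With trimmed-mean (TMM) scaling, which moved all log2 ratios by 0.17, the counts were 899 and 1047, so the share of higher genes among those 2-fold apart went from 35.0% to 46.2%. The endothelial cells of the same libraries had 949 genes (6.78%) higher and 943 (6.73%) lower.

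A few chaperone genes were higher in the satellite cells of day 21. Dnajb1 was at 1382 CPM at day 21 and 379 at day 7, a ratio of 3.65 (3.57 to 3.73). Hsph1 was at 524 against 187, a ratio of 2.80 (2.71 to 2.90), and Hspb1 at 1832 against 473, a ratio of 3.88 (3.80 to 3.95). In the list, 3 of 28 genes were at least 2-fold higher and none lower, with a median log2 ratio of 0.30. Hspe1 was at 783 against 400.2 and Hspa1a at 2869 against 1655, while Hspa1b was level at 868 against 909. In endothelial cells the log2 ratio was 0.22 for Hsph1 and 0.85 for Dnajb1, but 2.43 for Hspb1 and 1.08 for Hspa1a, above the satellite values of 1.95 and 0.79. Atf3 was likewise higher in both cell types, with log2 ratios of 1.18 and 1.03. The 17 cells of Vegfc CRE at day 7 had Dnajb1 at 1817 and Hsph1 at 947 CPM, and Pde10a, Edn3 and Hey1 at 131 each from 12 UMIs. Their median mitochondrial share was 7.66%, against 2.64% in the day 21 members. Their leukocyte markers summed to 250 CPM against 22.6, so these values may not be comparable.

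The heat shock pair was also spread at day 7, at lower counts. At day 7 the pair had a median of 1 UMI at a depth of 4000, quartiles of 0 and 3 and a highest value of 46. Its rho between subsets was 0.53. The 115 day 7 cells with 6 or more pair UMIs in subset A had Hspa1a at 5970, against 1129 in the 1785 cells with none, and Erfe at 34.8 against 110. Other genes ran differently along the axis at the 2 times. The ratio of top to bottom bin at day 7 was 0.686 for Cxcl1 (0.589 to 0.796), 0.720 for Nppc (0.638 to 0.811), 1.06 for Igfbp5 (0.966 to 1.17) and 1.33 for Pde10a (0.994 to 1.76), and the difference between days was not tested. The trio ratio of pair-high to other cells was 1.01 (0.941 to 1.08) at day 7 and the rho -0.03, with a pair-high class of at least 1 UMI there. The pair-high only and trio-high only classes of day 7 held 981 and 543 cells, with a trio-high class of at least 2 UMIs. Between them, 348 of 10214 genes (3.41%) were at least 2-fold higher in the pair-high cells and 289 (2.83%) lower. In the heat shock list 3 of 28 genes were higher: Dnajb1 and Hsph1, which set the classes, and Hspb1.

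The trio genes differed in their time course. Pde10a was at 171 CPM at day 21 and 176 at day 7, a ratio of 0.973 (0.931 to 1.02). Hey1 was at 63.3 and 54.2, and Heyl at 194 and 180.4. Edn3 was at 140 and 287, 2.05-fold lower at day 21 (1.96 to 2.14), and was seen in 55.1% of members against 81.0%. Edn3 was the only gene of the 3 past 2-fold when scaled to all UMIs, and TMM scaling brought it under 2-fold, to a log2 ratio of -0.86. The log2 ratio of Pde10a went from -0.04 to 0.13 with that scaling.

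Several peptide, receptor and growth factor genes were lower at day 21 together with Edn3. Igfbp5 was at 353 against 1904 CPM, 5.40-fold lower (5.27 to 5.54), and was seen in 43.7% against 88.6% of members. Gal was at 253 against 613, 2.42-fold lower, Calcr at 33.6 against 78.1, 2.32-fold lower, and Notch3 at 120.1 against 272, 2.26-fold lower. Tgfb2 was at 65.2 against 139, and Gpc3, a cell surface proteoglycan, was 11.2-fold lower, at 4.397 against 49.2. Cdkn1c, the cell cycle inhibitor p57, was at 61.3 against 228. Of the 30 immediate early genes with enough UMIs, 1 was at least 2-fold lower (Fosb, 3.06-fold) and 2 were at least 2-fold higher. The median of that list was -0.11. In the growth factor and cytokine list, 7 of 28 genes were at least 2-fold higher and 8 lower, with a median of -0.32. Among those higher were Bmp6, at 53.7 against 15.1, and Wnt4, at 59.6 against 27.3. Without the members rich in fibroblast or cell division UMIs, described below, this list had 3 of 27 genes higher and 10 lower, with a median of -0.61.

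Few satellite identity genes were 2-fold apart between the 2 times, though the median of the list was lower than that of all genes. In the identity list, 1 of 22 genes was at least 2-fold higher, Chrdl2, which the rule used, and 1 was lower, Calcr. The median log2 ratio was -0.39 in the list and -0.21 over all genes. Pax7, also in the rule, was at 444 against 698. Myod1 was at 122 and 113. In the Notch list, 1 of 17 genes was 2-fold lower (Notch3) and none higher. In the basement membrane list, 2 of 22 were higher (Fn1 and Col6a3) and 3 lower (Lama5, Lamb1 and Nid2), names chosen after their values were seen. Without the members rich in fibroblast or cell division UMIs, 1 of its 22 genes was higher and 3 were lower. Prox1 was at 778 against 1252 CPM. Of the myofibre markers 10 of 11 were at least 2-fold lower at day 21, and in the endothelial cells 12 of 12 were. The leukocyte markers had 6 of 7 genes higher in the satellite cells and 8 of 8 in the endothelial cells. The part of this RNA in other ratios was not tested.

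Dividing members were more frequent at day 21. At day 7, 13 of 3252 members (0.400%, 0.213% to 0.683%) had 10 or more UMIs of the 9 division genes, against the 55 of 2527 above. In the list of 17 proliferation genes, 10 were at least 2-fold higher at day 21 and none lower, with a median of 1.89. The endothelial cells went the other way, with 13 of 17 at least 2-fold lower and a median of -1.58. The fibroblast list had 7 of 9 genes higher, with a median of 3.39. The 5 genes Dcn, Col1a1, Col1a2, Lum and Pdgfra reached 10 UMIs in 29 day 21 members, which held 85.7% of their UMIs and had a median of 19909 UMIs a cell, against 6958 in the rest.

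Both lists were recomputed without the members that held 10 or more UMIs of the division genes or of those 5 fibroblast genes, 79 at day 21 and 49 at day 7, a choice made after the values were seen. Then 3 of 17 proliferation genes (Ccnb2, Cenpf and Top2a) were at least 2-fold higher, with a median of 0.08, and 4 of 8 fibroblast markers (Col1a1, Dcn, Lum and Pi16), with a median of 0.63. Over all genes, 491 (3.61%) were higher and 1489 (10.9%) lower. The heat shock list was as before, with 3 of 28 higher and a median of 0.33. As the cells left out were chosen on genes of both lists, these lower medians follow from the choice and show only where the UMIs lay.

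**Figure D5:**
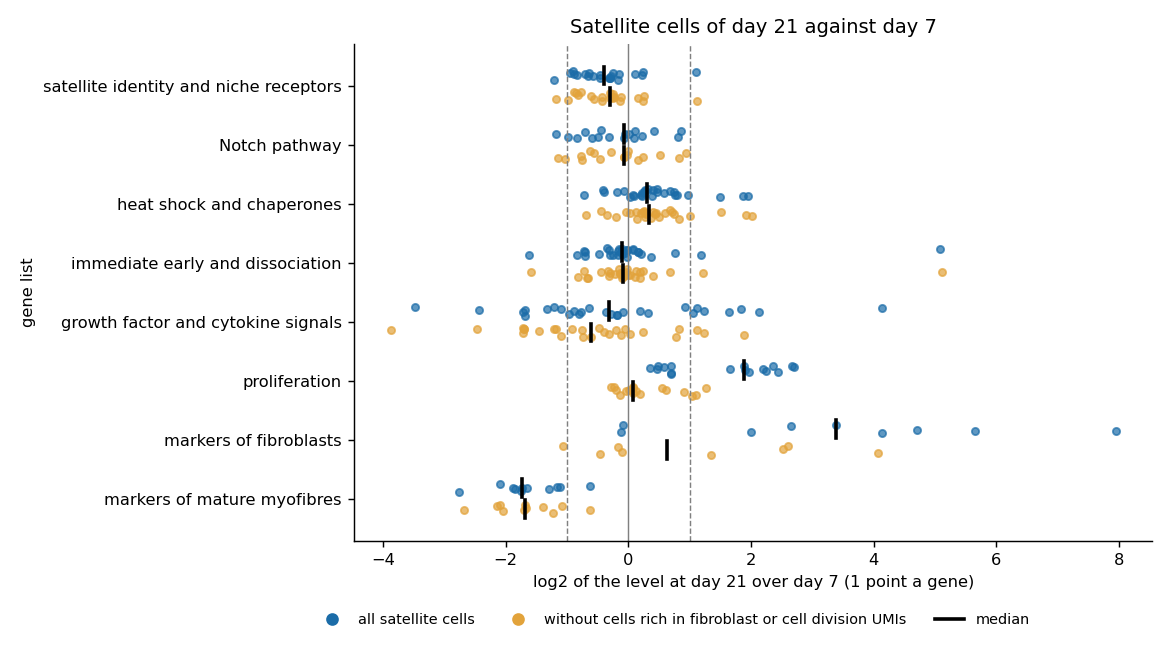
Log2 ratio of gene levels in satellite cells of day 21 over day 7, 1 point a gene with at least 10 UMIs, for 8 gene lists. The upper points of each list use all members and the lower points leave out the members with 10 or more fibroblast or cell division UMIs, the black bars are medians and the dashed lines mark 2-fold. The median of the proliferation list goes from 1.89 to 0.08, and that of the heat shock list stays at 0.30 and 0.33.

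Many genes with the largest ratios by the naming rule had like ratios in endothelium or had their UMIs in few cells. Atp6v0c was at 308 against 3.05 CPM in satellite cells, and at 424 against 4.50 in the endothelial cells. Rnasek was at 101 against 0.886, and at 209 against 2.08 in endothelium. Ptp4a1 was at 3.52 against 232, and at 2.46 against 99.2 in endothelium, and Tonsl, Srp54c and Sept2 were likewise lower in both cell types. Egr3 had log2 ratios of 5.09 and 4.95. Aspn, a matrix gene of connective tissue, was at 26.8 against 0 with 42.3% of its UMIs in 1 cell, and Fmod had 69.8% in 1 cell. Of the rest of this set, Srp54a, Col14a1, Fam89b, Eif4ebp3, Tmem265, Mmp3, Pi16 and Tnmd were higher, and Cxcl5, Lrrc24, Gm45902, Rps6ka4, Cfap43, 1700047I17Rik2, Tmppe and Gm14698 were lower.

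A second selection, also set after the values were seen, therefore kept genes seen in at least 5% of the remaining members of either library, under 1.5-fold apart in endothelial cells and free of overlap with a gene found in only 1 list. Of these 7127 genes, 18 were at least 2-fold higher in satellite cells of day 21 and 219 at least 2-fold lower. Beside Hsph1 (540 against 190), the higher genes included Srsf7, a splicing factor (494 against 127), Tsc22d3, a glucocorticoid-induced gene (165 against 57.4), Anxa3 (68.35 against 25.4) and Tshz2 (158 against 72.3). The lower genes included Hopx (2.08 against 18.4), Steap4 (3.43 against 23.1), AW551984 (1.46 against 9.36) and Ryr3, a calcium release channel (3.15 against 19.7). Igfbp5 was at 345 against 1908. Sulf1, which edits heparan sulphate, was at 56.5 against 217, Emp1 at 39.2 against 148, and Dbp, a clock output gene, at 33.8 against 119. A gene could pass this selection through the library where it was higher alone, as Hopx did with 1.31% of members at day 21 and 11.1% at day 7, so the split of 18 and 219 is a description of the selected genes only.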

How the data were processed

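The submitters' processing notes name Cell Ranger 5.0.1 and the mouse build mm10 for the UMI count matrices that the authors made from the droplet 3′ libraries. The deposited values are raw counts per gene and barcode. The day 7 Prox1 eGFP gene list holds 27998 genes and the others 32285, so libraries were compared over shared identifiers only. There was 1 library a group.

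Members, gene lists and alternatives were chosen with earlier results of these data known. Counts of members were summed and scaled to CPM, with exact Poisson, Clopper-Pearson and conditional binomial intervals (Python 3.11.15, numpy 2.4.6, scipy 1.17.1, pandas 2.3.3, scikit-learn 1.9.0, matplotlib 3.10.9). Depth was equalised by thinning to 4000 UMIs in subsets of 2000. Genes needed at least 10 UMIs over both sides to be counted as 2-fold apart, and this is a size rule without a test. Named genes were list members, the 12 largest ratios in each direction with at least 50 UMIs, and the 10 largest loadings at each end of components 1 to 3. No doublet caller was run. The rule removes cells with UMIs of Pecam1, Cdh5 or Ptprc, so doublets with other cells, such as fibroblasts, may remain among the members. Values were recomputed without the 5% of members with the most UMIs. Other alternatives were the cell filter, marker sum, myofibre share, thinning depth, seed, percentile, UMI minimum and TMM scaling. The thinning and ratio steps were tested on simulated data.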

Additional observations from a re-analysis of the deposited data

Results flagged for a closer look

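Some genes had ratios of opposite sign on the 2 days or in the 2 cell types. None of these differences was tested, since each side is 1 library. Between pair-high only and trio-high only cells, 9 of 221 genes had ratios in opposite directions at day 21 and day 7, with counting intervals that exclude equality on both sides. The classes were not cut alike. The pair cut was 6 UMIs at day 21 and 1 at day 7, and the trio cut 1 and 2. The log2 ratios at day 21 and day 7 were -0.68 and 0.18 for Igfbp5, 1.19 and -0.59 for Snx27, 0.40 and -0.91 for Txnip, -1.15 and 1.29 for Cdkn1c, and -0.49 and 0.21 for Sparc. They were -2.04 and 1.81 for Rrm2, 0.60 and -0.07 for Fos, 1.09 and -0.82 for Socs6, and -0.48 and 0.76 for Acta2. Snx27 and Socs6 also turned direction within day 21 under other settings, given below.

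Between day 21 and day 7, 14 of 275 genes were at least 2-fold apart in opposite directions in satellite and endothelial cells. Cell division genes were higher in satellite cells of day 21 and lower in endothelial cells, with log2 ratios of 2.35 and -1.86 for Birc5, 2.71 and -1.90 for Ccna2, 2.20 and -2.04 for Ccnb1, 2.44 and -1.58 for Ccnb2, and 1.65 and -1.69 for Cdk1. Those of Cenpe were 1.89 and -2.55, of Cenpf 2.67 and -1.55, of Mki67 1.97 and -2.22, and of Top2a 2.24 and -1.81. The other genes were lower in satellite cells and higher in endothelial cells. Their log2 ratios were -3.60 and 4.03 for Actc1, -4.38 and 1.13 for Tnnt2, -1.89 and 1.57 for Cdkn1c, -3.49 and 1.20 for Gpc3, and -1.18 and 1.00 for Notch3.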

How the results depend on the processing

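No paired analysis was possible because each group is 1 library. The share of members was 39.6%, and 42.5% with a marker sum of 2, 31.8% with a sum of 5 and 38.3% without the members rich in fibroblast or division UMIs. Genes at least 2-fold lower in pair-high only cells numbered 744, and 495 with the 50th percentile. Between day 21 and day 7 the counts of 763 higher and 1415 lower became 476 higher with each cell thinned to 2000 UMIs, 2241 and 2355 with a minimum of 1 UMI, 433 and 804 with a minimum of 50, and 491 higher without the members rich in fibroblast or division UMIs, an alternative chosen after the data were seen. Sparse genes turned direction between pair-high only and trio-high only cells (log2). Ntmt1 was at -1.20 at a depth of 2000, -0.15 with another seed, -0.51 without the 5% of members with the most UMIs, and -0.48 without the fibroblast-rich or dividing members. Stambp was at 0.99 at a depth of 2000 and 0.15 without the 5%. Hist1h1b was at 0.018 with the 90th percentile, 0.12 with the same UMIs for classes and values, and 0.65 without the fibroblast-rich or dividing members, which left Snx27 at -0.67. Hist1h2ae was at 0.55 with the 90th percentile, and Kirrel at 0.049 and Socs6 at -0.29 without the 5%. The cause was not tested. Over all alternatives, 407 further values of single genes and 39 of main results stayed within the tolerance, and 165 values of single genes moved without turning.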
